A study of Mus musculus with 12 samples.

Results

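In fibro-adipogenic progenitors (FAPs) of dystrophic mouse muscle, 753 regions carried a listed peak of histone H3 lysine 27 acetylation (H3K27ac) in old trichostatin A (TSA), young TSA and young vehicle cells and none in old vehicle cells. They were chosen by the presence of H3K27ac peaks, merging the H3K27ac peaks of all 4 libraries where peaks overlapped by 1 bp or touched, on chromosomes 1 and 2 and on chromosome 3 up to position 122275556 of GRCm38. The merge gave 8708 regions, so that the members made up 8.65% of them. Because the 4 H3K27ac lists chose the members, their presence, tags and widths in these libraries are a description and carry no test.

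The cells came from C57Bl6 mdx mice, which lack dystrophin, so that their muscle degenerates and regenerates repeatedly. Old mice were 12 months of age and young mice 1.5 months. In both ages, 1 group had TSA at 0.6 mg/kg/day in saline, injected daily for 15 days, and 1 group had saline alone as vehicle. Cells sorted by flow cytometry were then profiled by chromatin immunoprecipitation and sequencing for H3K27ac and for acetylation of H3 at lysines 9 and 14 (H3K9/14ac), with 1 library per mark in each of the 4 groups. All groups share the mdx background, no healthy mice are among the 12 samples, and whether animals were pooled was not stated. With 1 library per group, no difference between groups could be tested.

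H3K27ac marks active enhancers and promoters and is written chiefly by the acetyltransferases CBP and p300. TSA inhibits class I and class II histone deacetylases, the enzymes that remove acetyl groups from histones. FAPs are resident mesenchymal cells that support muscle stem cells during repair and that, in chronic disease, give rise to fat and fibrous tissue.

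A missing peak means that none was listed. Peak numbers ran in genome order but skipped values: 42.2% of the numbers in the stretch were unlisted in old TSA, 45.8% in old vehicle, 45.5% in young TSA and 46.1% in young vehicle. The lists thus hold only part of the numbered peaks, and 43 of the 753 members (5.71%) lay between old vehicle peaks with consecutive numbers, where no unlisted old vehicle peak could lie. The stretch held 7571 listed H3K27ac peaks in old TSA, 5727 in old vehicle, 5945 in young TSA and 7891 in young vehicle. Their tags, the reads counted in each peak and not normalized, summed to 1497491, 952786, 1376021 and 1659160 in the same order. Old vehicle thus had the fewest peaks and the fewest tags in peaks, and both moved with the members. Tags in listed peaks are not the number of reads sequenced, which was not available here. The part of either in the result was not tested. In such bulk samples, fewer cells of a type and less acetylation per cell cannot be told apart.

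The member with the most tags in its weakest library, at chr2:26588415-26592286, lay in Egfl7, which encodes a secreted factor of the endothelium. It holds the hairpins of Mir126a and Mir126b, which are read from opposite strands of the same site. Of 161 microRNA hairpins in the stretch, 3 lay inside members, and the third was Mir7685. The mature sequences that the RefSeq table holds for the 3 hairpins follow, 5′ to 3′, from GRCm38.p6, with the seed (bases 2 to 8) in capitals. They are shown because they are encoded inside members, and for Mir126a only a 3p sequence is held.
miR-126a-3p, chr2:26591402-26591423, plus strand: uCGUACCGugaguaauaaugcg
miR-126b-3p, chr2:26591363-26591385, minus strand: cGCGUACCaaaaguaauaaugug
miR-126b-5p, chr2:26591399-26591420, minus strand: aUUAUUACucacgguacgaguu
miR-7685-3p, chr2:158243504-158243524, minus strand: aGACUUGGcuuccggcuggag
miR-7685-5p, chr2:158243542-158243565, minus strand: aCCUUCCGguuucuucaagucucc
No seed was shared among these 5 sequences. The seeds of miR-126a-3p and miR-126b-3p hold the letters CGUACC in common, shifted by 1 base.

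Promoters of 5 of the named genes are shown as examples. Each is the 250 bases before the RefSeq transcription start, 5′ to 3′ on the gene's strand in GRCm38.p6, with CpG dinucleotides in capitals. Egfl7 and Dll4 belong to the endothelial list, Igfbp5 to the senescence list and Casq1 to the muscle fibre list. Rpap1, which encodes a factor associated with RNA polymerase II, was among the genes whose ends held a member and no old vehicle peak.
Egfl7, chr2:26586386-26586635, plus strand: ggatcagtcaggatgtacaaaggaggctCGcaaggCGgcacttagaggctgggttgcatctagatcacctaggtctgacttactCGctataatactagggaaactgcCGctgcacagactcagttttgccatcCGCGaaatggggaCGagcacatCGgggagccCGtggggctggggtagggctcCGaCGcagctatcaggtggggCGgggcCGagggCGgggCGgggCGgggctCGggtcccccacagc
Dll4, chr2:119325534-119325783, plus strand: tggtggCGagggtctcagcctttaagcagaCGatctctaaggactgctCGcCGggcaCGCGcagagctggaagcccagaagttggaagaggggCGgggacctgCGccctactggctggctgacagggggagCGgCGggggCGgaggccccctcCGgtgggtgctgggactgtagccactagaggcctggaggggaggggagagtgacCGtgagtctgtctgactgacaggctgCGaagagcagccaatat
Igfbp5, chr1:72874866-72875115, minus strand: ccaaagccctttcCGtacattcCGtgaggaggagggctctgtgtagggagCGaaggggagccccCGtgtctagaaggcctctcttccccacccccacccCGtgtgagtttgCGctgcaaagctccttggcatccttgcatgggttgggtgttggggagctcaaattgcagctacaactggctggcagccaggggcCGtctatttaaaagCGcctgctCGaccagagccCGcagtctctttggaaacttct
Casq1, chr1:172219896-172220145, minus strand: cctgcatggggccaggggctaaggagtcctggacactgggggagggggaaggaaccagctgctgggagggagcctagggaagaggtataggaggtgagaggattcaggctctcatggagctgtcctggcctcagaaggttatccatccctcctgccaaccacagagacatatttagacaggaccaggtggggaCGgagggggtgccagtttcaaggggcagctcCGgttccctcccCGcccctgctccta
Rpap1, chr2:119787538-119787787, minus strand: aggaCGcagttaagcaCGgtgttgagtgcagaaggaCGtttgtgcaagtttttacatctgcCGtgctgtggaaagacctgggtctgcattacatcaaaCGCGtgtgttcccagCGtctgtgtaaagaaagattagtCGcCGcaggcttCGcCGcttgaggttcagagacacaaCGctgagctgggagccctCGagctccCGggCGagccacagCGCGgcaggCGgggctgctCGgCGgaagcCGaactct
The starts of Dll4, Casq1 and Rpap1 lay inside a member. The Egfl7 start lay 39 bp from the nearest member and the Igfbp5 start 58 bp. CpG dinucleotides numbered 17 in the Egfl7 stretch, 14 in Dll4, 10 in Igfbp5, 3 in Casq1 and 21 in Rpap1, so that Casq1 stood at the low end of these 5.

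In Egfl7, the member with the most tags had 441 H3K27ac tags in old TSA, 624 in young TSA and 502 in young vehicle. A second member in the gene, at chr2:26586676-26588317 and nearer to the printed start, had 229 tags in old TSA, 281 in young TSA and 258 in young vehicle. Young TSA was highest and old TSA lowest at both. Old vehicle listed no peak at either, although 8 unlisted old vehicle numbers fall between the flanking old vehicle peaks. H3K9/14ac, measured in libraries that the rule did not use, was listed there in every condition: the first member had 641 tags in old TSA, 520 in old vehicle, 850 in young TSA and 351 in young vehicle. The second had 591 in old TSA, 300 in old vehicle, 850 in young TSA and 215 in young vehicle, and the same young TSA peak touches both. At both members, then, the other acetylation mark was present in old vehicle and had more tags there than in young vehicle, before any correction for depth.

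**Figure D1:**
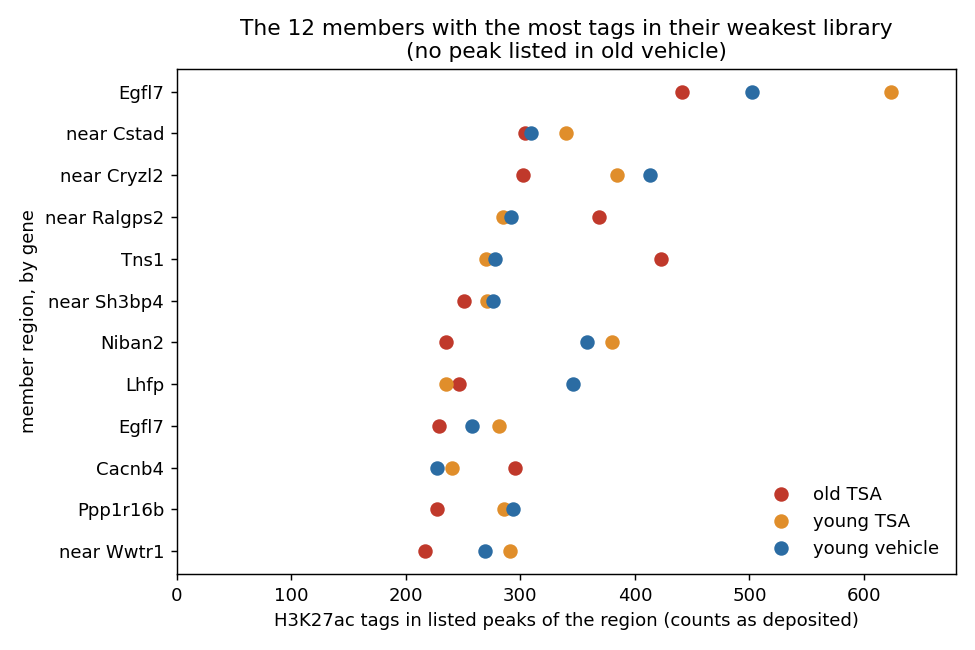
H3K27ac tags (x axis, counts as deposited) in old TSA, young TSA and young vehicle for the 12 members with the most tags in their weakest library; each row is 1 member named by its gene or the nearest gene, and each point is 1 library. The first Egfl7 member stands apart with 441 to 624 tags, and old vehicle has no point because it listed no peak.

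The other members of this kind lay mostly away from gene starts. Tns1, which encodes the focal adhesion protein tensin 1, had 423 tags in old TSA, 270 in young TSA and 278 in young vehicle at chr1:74015501-74018298. Here old TSA was well above both young libraries, and an old vehicle peak lay 78 bp away. Niban2, at chr2:32887904-32890659, had 235 tags in old TSA, 380 in young TSA and 358 in young vehicle, the opposite order. The member at chr3:57603770-57605490 had 217 tags in old TSA, 291 in young TSA and 269 in young vehicle. Its nearest gene, 27859 bp away, was Wwtr1, which encodes the Hippo pathway coactivator TAZ. Another member, not among the 12, lay inside Wwtr1, with 214 tags in old TSA, 354 in young TSA and 447 in young vehicle. Near Ralgps2, which encodes an exchange factor for Ral GTPases, a member had 369 tags in old TSA, 285 in young TSA and 292 in young vehicle. In Ppp1r16b, which encodes a regulatory subunit of protein phosphatase 1, the member at chr2:158668548-158670742 had 227 tags in old TSA, 286 in young TSA and 294 in young vehicle. Cacnb4, which encodes a calcium channel beta subunit, held a member with 295, 240 and 227 tags in the same order. The other 4 of the 12, near Cstad, Cryzl2 and Sh3bp4 and in Lhfp, ranged between 235 and 413 tags in these libraries. No shared order of the 3 libraries was seen among the 12.

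Over all 753 members the median was 86 tags in old TSA (quartiles 60 to 123), 86 in young TSA (61 to 125) and 104 in young vehicle (67 to 150). Regions listed in all 4 libraries, 3706 in number, had medians of 248 tags in old TSA, 170 in old vehicle, 239 in young TSA and 269 in young vehicle. Members thus had fewer tags at the median in every library that listed them. They were also narrower, with a median peak width of 561 bp in old TSA, 562 bp in young TSA and 739 bp in young vehicle, against 1218.5, 1161 and 1367 bp for regions in all 4 lists. Tags per 1000 bp of peak were 152 in old TSA, 155 in young TSA and 142 in young vehicle at members, and 205, 201 and 196 at regions in all 4 lists.

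Set against regions in all 4 lists, the members' median tags differed little between the 3 libraries that listed them. Relative tags, taken as a log2 tag ratio between libraries less its median over regions in all 4 lists, had medians of -0.06 for old TSA over young TSA and -0.08 for old TSA over young vehicle. For young TSA over young vehicle the median was -0.05. Single members spread widely around these values, with quartiles of -0.46 and 0.34 for old TSA over young TSA.

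**Figure D2:**
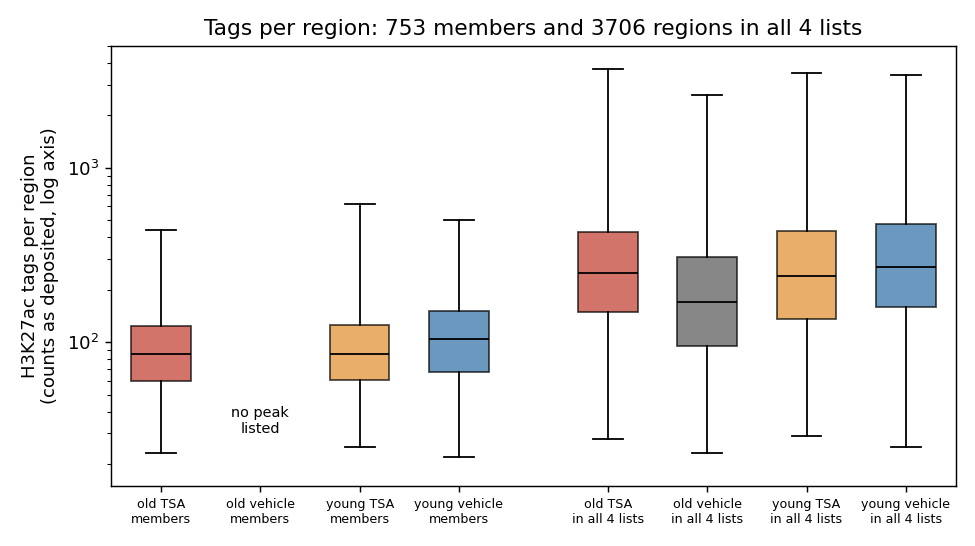
H3K27ac tags per region (y axis, counts as deposited, log axis) by library for the 753 members and the 3706 regions in all 4 lists; boxes span the quartiles with the median as a line and whiskers reach the lowest and highest region. Member medians of 86 to 104 tags lie below all medians of regions in all 4 lists, which run between 170 and 269.

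Regions with few tags lacked an old vehicle peak more often than regions with many. Among the 4459 regions with a peak in old TSA, young TSA and young vehicle, 16.9% lacked one in old vehicle; the rule used this contrast, so nothing is read from that share itself, nor from the 26.4% of all regions with a peak in old TSA and none in old vehicle. Where the weakest of the other 3 libraries had under 50 tags, 190 of 317 regions (59.9%) lacked an old vehicle peak. Between 100 and 149 tags it was 123 of 665 (18.5%), and from 200 tags upward 20 of 1977 (1.01%). Young TSA, the library that listed the next fewest peaks, lacked a peak in 7.83% of the 4021 regions listed in its other 3 libraries. By bins of the same tag counts young TSA lacked 31.9%, 5.0% and 0.192%. Its bins rest on tags that include those of old vehicle, which had the fewest. Bins of different libraries thus hold regions of unlike strength, and nothing is read from their shares set side by side. In all, 1168 regions were missing in exactly 1 list, of which 753 were missing in old vehicle, 315 in young TSA, 63 in old TSA and 37 in young vehicle.

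The old vehicle level at members could be set against the rest only indirectly. Regions in all 4 lists had a median log2 ratio of 0.50 for old TSA over old vehicle. At that ratio, the median member's old TSA tags correspond to 60.6 old vehicle tags, and 23.6% of the listed old vehicle peaks had fewer tags than that. The smallest listed old vehicle peak had 23 tags, and 735 of the 753 members would exceed it at the same ratio. The ratio comes from regions that old vehicle listed, and may not hold at members, which it did not list. Member tags are also summed over a region, whereas the listed old vehicle counts are of single peaks. These values are a description, and the part of depth in the missing peaks was not tested.

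**Figure D3:**
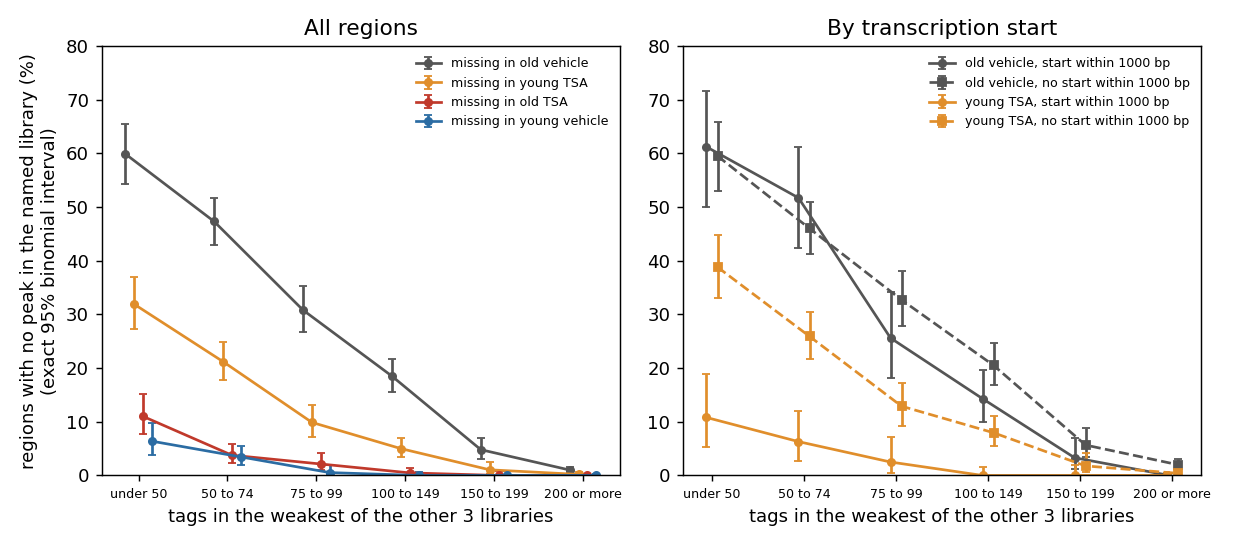
Share of regions with no listed H3K27ac peak in the named library (y axis, percent, with exact 95% binomial intervals) by the tags of the weakest of the other 3 libraries (x axis, counts in 6 bins); the left panel shows all 4 libraries and the right panel splits old vehicle and young TSA by whether a transcription start lies within 1000 bp. Old vehicle falls between 59.9% and 1.01% over the bins. In the weakest bin its shares are 61.2% with a start and 59.5% without, and those of young TSA 10.8% and 38.8%. Each library is binned by its own other 3 libraries, so bins are not alike between libraries.

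By distance, the members lay a median of 7216 bp from the nearest old vehicle peak (quartiles 666 and 24041 bp), and 216 of them (28.7%) lay within 1000 bp. The 6 nearest, at the edge of the rule, lay between 2 and 74 bp from one. They include members in Itpkb, an inositol trisphosphate kinase gene, at Thbs3, which encodes a thrombospondin, in Rit1, a small GTPase gene, and at the start of Cul3, a scaffold of ubiquitin ligases. The other 2 lay near Cryga, a lens crystallin gene, and at Dusp23, a phosphatase gene. The Cul3 member had 55 tags in old TSA, 27 in young TSA and 43 in young vehicle. On the other side of the rule, the 6 regions in all 4 lists with the fewest old vehicle tags had between 23 and 26 of them. At Skil, which encodes a repressor of TGF-beta signalling, such a region had 56 tags in old TSA, 23 in old vehicle, 66 in young TSA and 54 in young vehicle. At Acadl, which encodes an enzyme of fatty acid oxidation, it was 114 in old TSA, 25 in old vehicle, 47 in young TSA and 136 in young vehicle. Others of these regions lay at or nearest to Gatad2b, Zcchc2 and Ccm2l. In the other 3 libraries, the regions just outside the rule thus had tag counts that overlap those of the members just inside it.

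Position was not used by the rule. A transcription start was on record for 3189 of the 3789 protein-coding genes. Regions at the remaining genes can thus be counted as having no start, here and in every split by start. A transcription start lay within 1000 bp of 182 members, or 24.2% (exact 95% binomial interval 21.2 to 27.4, which here and below covers counting error only). Over all regions the share was 23.8%. It was 42.5% (40.9 to 44.1) for regions in all 4 lists and 6.67% (21 of 315) for the regions missing only in young TSA. For the 63 regions missing only in old TSA it was 6.35% (1.76 to 15.5), and for those missing only in young vehicle it was 10 of 37 (13.8% to 44.1%). The member share was near that of all regions. Regions of the same libraries are not replicates, and no difference between these classes was tested. A start lay inside 11.6% of members and 15.2% of all regions, against 31.9% of regions in all 4 lists and 0.952% of those missing only in young TSA. A gene end, meaning either annotated end, lay within 1000 bp of 28.0% of members and 27.1% of all regions. At the 43 members between consecutive old vehicle numbers this share was 51.2% (35.5 to 66.7), a restriction chosen after seeing the data. No matching share is given for other regions between consecutive numbers, so it is not read as a trait of these members. Genes held 42.6% of members and 45.9% of all regions away from their ends, and 29.3% of members (221 of 753) and 2352 of all 8708 regions lay outside genes.

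Shares missing were also split by start within bins of strength. As the missing calls chose the members, these values are a description. Each library has bins set by its own other libraries, so bins are not alike between libraries. In the weakest bin, old vehicle lacked a peak at 61.2% of regions with a start (52 of 85) and at 59.5% (52.9 to 65.9) of those without. Young TSA lacked one at 10.8% (5.28 to 18.9) of regions with a start and at 38.8% (33.1 to 44.7) of those without. Between 50 and 74 tags the shares were 51.7% and 46.0% in old vehicle, against 6.30% and 25.9% in young TSA. In old vehicle they were 25.6% and 32.7% between 75 and 99 tags and 14.3% and 20.5% between 100 and 149 tags, lower with a start in both bins. Old TSA lacked 4.49% with a start and 13.7% without in the weakest bin. Young vehicle lacked 4.71% and 7.04% in that bin, and 4.69% and 2.98% between 50 and 74 tags. From 200 tags upward, 1 of 1031 regions with a start and 19 of 946 without one lacked an old vehicle peak.

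**Figure D4:**
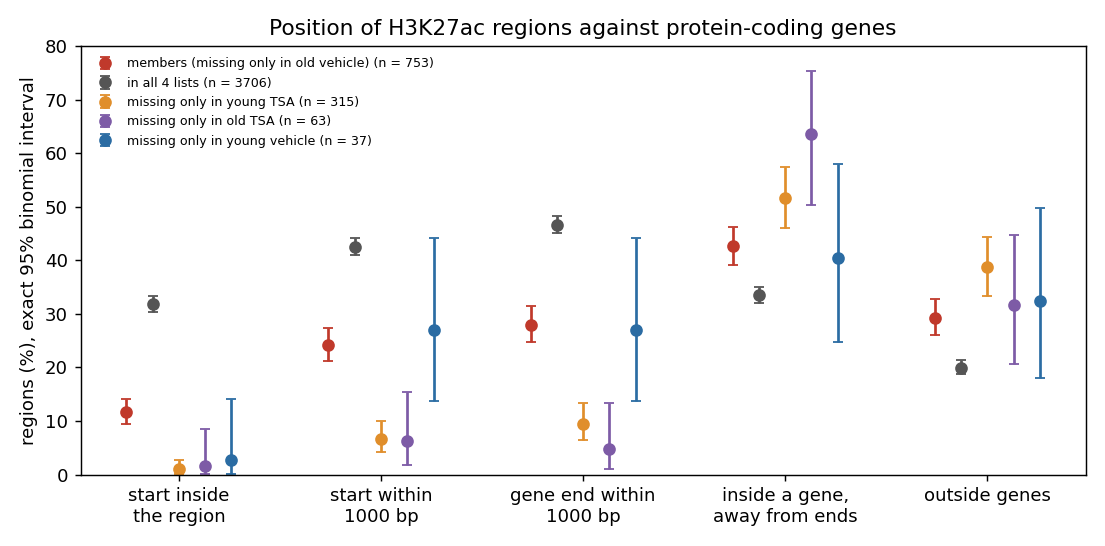
Share of regions (y axis, percent, with exact 95% binomial intervals) by position against protein-coding genes (x axis) for the members, for regions in all 4 lists and for regions missing only in young TSA, old TSA or young vehicle. Members have a start within 1000 bp in 24.2% of cases, between the 42.5% of regions in all 4 lists and the 6.67% of those missing only in young TSA.

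The 97 transcription starts inside members belonged to 87 genes and were mostly CpG-rich. Over the 300 bases that the RefSeq table gives around each start, their median ratio of observed to expected CpG was 0.71, and it was above 0.6 at 64.9% of them. Starts inside regions of all 4 lists, 1480 in number, had a median of 0.79 and 78.1% above 0.6. Starts outside every region had 0.30 and 26.8%. Motifs were searched on both strands by their letters alone, allowing overlap. The ETS motif CCGGAAG was present at 8.25% (3.63 to 15.6) of member starts, 21.9% (19.8 to 24.1) of starts in all 4 lists and 11.1% of all 3887 starts. The GC box GGGCGG was present at 54.6%, 63.5% and 45.3% in the same order, and CCAAT at 37.1%, 36.3% and 36.7%. The E-box CACGTG was found at 4.12%, 9.73% and 7.64%, the AP-1 letters TGANTCA at 4.12%, 5.41% and 7.77%, and TATAAA at 7.22%, 5.41% and 12.9%. The CRE letters TGACGTCA were at 0 of 97 member starts, 2.77% of starts in all 4 lists and 1.70% of all starts; an exact interval on 0 of 97 reaches 3.73%. Of the printed promoters, Egfl7 holds 4 GC boxes, Dll4 2 and Casq1 1.

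H3K9/14ac was compared on the stretch that all 8 lists cover, chromosome 1 and chromosome 2 up to position 167064301, with 552 members. A listed H3K9/14ac peak overlapped 31.2% of members in old TSA (27.3 to 35.2), 34.1% in old vehicle (30.1 to 38.2), 39.9% in young TSA (35.7 to 44.1) and 29.3% in young vehicle (25.6 to 33.3). Over all 6410 regions the shares were 32.7%, 34.4%, 36.3% and 31.2% in the same order. By these lists, young vehicle and not old vehicle had the lowest share. When every H3K9/14ac list was shortened to the number of peaks in the shortest, the widest peaks kept, the shares were 31.2% in old TSA, 25.4% in old vehicle, 32.4% in young TSA and 26.4% in young vehicle, so that old vehicle came below old TSA; its interval (21.8 to 29.2) overlaps that of young vehicle (22.8 to 30.3). Over all regions the same lists gave 32.7%, 29.2%, 31.4% and 29.7%, with the same turn between the old libraries, so that it is not particular to the members. This comparison over all regions was chosen after seeing the data. Old TSA was the shortest H3K9/14ac list and kept all of its 2474 peaks, so only the shares of the other libraries could fall. A peak in old TSA and none in old vehicle was seen at 16 members (2.90%; 2.96% of all regions), and the reverse at 32 (5.80%; 4.73% of all regions). A peak was listed in all 4 libraries at 134 members (24.3%; 26.9% of all regions) and in none at 302 (54.7%; 57.7% of all regions), so that these shares were near the background.

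The other mark split by gene starts, where regions counted as without a start can lie at genes with no start on record. Of the 138 members with a start within 1000 bp, 85.5% had an H3K9/14ac peak in old TSA, 87.0% in old vehicle, 91.3% in young TSA and 85.5% in young vehicle. Of the 414 without one, it was 13.0%, 16.4%, 22.7% and 10.6%. Regions in all 4 lists had 95.9%, 94.8%, 95.7% and 94.7% with a start and 33.7%, 39.2%, 41.9% and 31.7% without. At the 134 members with a peak in every library, the median log2 tag ratio was -0.39 for old TSA over old vehicle and 0.60 for young TSA over young vehicle, against -0.39 and 0.37 at regions in all 4 lists with the same property. The sums of tags in peaks moved with these ratios. For H3K9/14ac they were 426273 in old TSA, 608674 in old vehicle, 631446 in young TSA and 452476 in young vehicle. Their part was not tested.

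**Figure D5:**
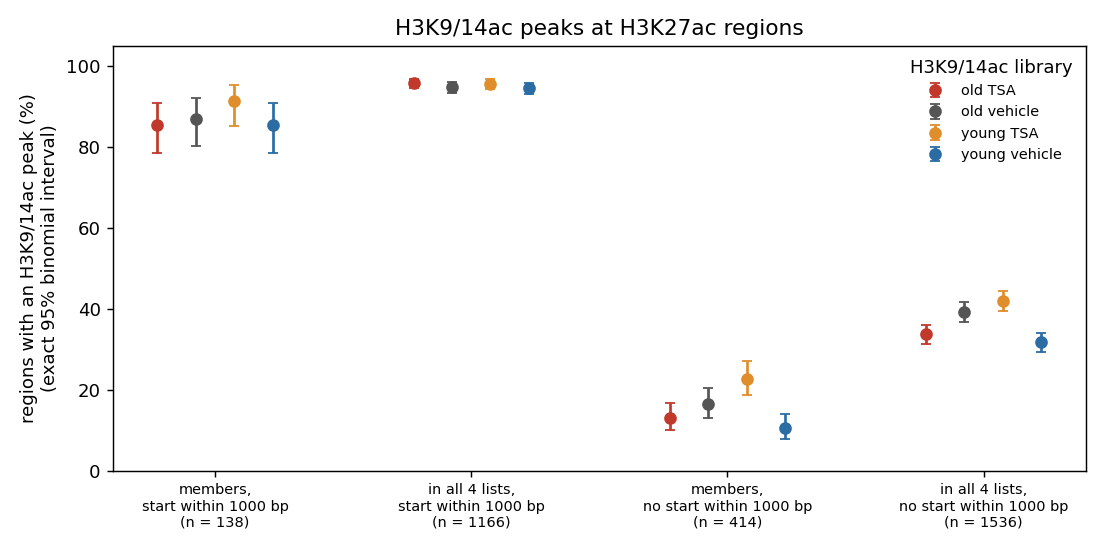
Share of H3K27ac regions with a listed H3K9/14ac peak (y axis, percent, with exact 95% binomial intervals) in the 4 H3K9/14ac libraries (colours), for members and for regions in all 4 lists, each with and without a transcription start within 1000 bp (x axis). With a start, members reach 85.5% to 91.3% in every library, old vehicle included; without a start they range between 10.6% and 22.7%.

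Among members where the marks differed, Igfbp5, a gene for a secreted binding protein of insulin-like growth factors, had an H3K9/14ac peak of 164 tags in old vehicle and 192 in young TSA, and none in old TSA or young vehicle. Its H3K27ac tags were 256 in old TSA, 190 in young TSA and 112 in young vehicle at chr1:72872904-72874806, beside the printed start. Old vehicle thus listed H3K9/14ac there and no H3K27ac. The same held at Dab2ip, a Ras GTPase-activating protein gene, with 67 H3K9/14ac tags in old vehicle, 37 in young vehicle and no peak in either TSA library. The members near Ralgps2 and in Soga1 and Niban2 also had H3K9/14ac in old vehicle and young TSA and none in old TSA or young vehicle. At Smarcal1, which encodes a DNA annealing helicase, the H3K9/14ac tags were 116 in old vehicle and 41 in young TSA. In the other direction, a member in Tnks1bp1 had 175 H3K9/14ac tags in old TSA and 63 in young TSA, and none in either vehicle library. A member in Lrrc8a, which encodes a volume-regulated anion channel subunit, had 38 in old TSA and 75 in young TSA and none in either vehicle library. The same pattern was seen in Itprid2 and near Id1 and Foxs1, while the member near Ttpal had H3K9/14ac in old TSA alone, with 331 tags.

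Of 3789 protein-coding genes in the stretch, 537 (14.2%) had a member in the gene or within 10000 bp, and they were 22.3% of the 2405 genes with any peak there. Genes with a member were longer, with a median of 41843 bp against 24224 bp for the other genes with a peak, so that counts per gene also reflect length. Lhfp, and Rbms1, which encodes an RNA-binding protein, held 6 members each. Tanc1, Lrrfip1, Rxra and Rapgef2 held 5 each, and Tns1, Nes, Hspa12b and Fndc3b 4 each. At Rxra, which encodes the retinoid X receptor that pairs with PPAR-gamma, the 5 members summed to 552 tags in old TSA, 677 in young TSA and 833 in young vehicle. At Nes, which encodes the intermediate filament nestin, they summed to 702 in old TSA, 624 in young TSA and 414 in young vehicle. Within 10000 bp of Nes, all listed H3K27ac peaks together had 1001 tags in old TSA, 56 in old vehicle, 989 in young TSA and 721 in young vehicle. At Rxra the corresponding tags were 3789 in old TSA, 1991 in old vehicle, 3162 in young TSA and 3144 in young vehicle. The members, which lack an old vehicle peak by the rule, are part of these sums, so nothing is read from the lower old vehicle values. Old vehicle listed other peaks at 449 of the 537 genes and had none in 88.

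Of the 3789 genes, an end was marked at 1871 in old TSA, 1680 in old vehicle, 1815 in young TSA and 1852 in young vehicle. Members lack an old vehicle peak by the rule, so the counts that follow are a description. A member marked an end of 218 genes, and at 119 of them old vehicle listed no peak at either end. Zcchc3 and its neighbour 6820408C15Rik shared 1 such member, with 192 tags in old TSA, 252 in young TSA and 248 in young vehicle. Casq1, which encodes calsequestrin 1, a calcium-binding protein of fast muscle fibres, had 214 tags in old TSA, 177 in young TSA and 169 in young vehicle. Lamc3, a laminin gene, had 162, 154 and 174 in the same order, and Rpap1 had 152, 153 and 167. The only transcription start within 1000 bp of the Lamc3 member was that of Aif1l, 473 bp away. Around Lamc3, Rpap1 and Myef2 old vehicle listed no peak within 10000 bp either. Around Casq1 it listed 4 peaks. Dsn1, a kinetochore gene, had 136 tags in old TSA, 214 in young TSA and 193 in young vehicle. Ppp1r16b, Tsga10, A630001G21Rik, Sardh and Dennd1a complete the 12 with the most tags in their weakest library, and their member at the gene end had between 131 and 166 tags in its weakest library.

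Gene lists were read against the 22.3% of genes with any peak that hold a member. In the endothelial list 5 of 7 genes with a peak held one: Egfl7, Eng, Dll4, Procr and Sox17. Dll4, a Notch ligand of endothelial tip cells, had 170 tags in old TSA, 233 in young TSA and 172 in young vehicle at its member. Procr, the endothelial protein C receptor, had 93, 117 and 139 in the same order, and was the one of these 5 genes with no old vehicle peak at its ends. Eng, a co-receptor for TGF-beta and BMP ligands, had 3 members with 174 tags in old TSA, 296 in young TSA and 434 in young vehicle. Sox17, an endothelial transcription factor, had 112, 165 and 196. In all 5, old TSA was below young TSA, and the whole list held 0.789% of peak tags in old TSA, 0.683% in old vehicle, 1.06% in young TSA and 0.896% in young vehicle. A gene end was marked at 7 listed endothelial genes in old TSA, 6 in old vehicle, 7 in young TSA and 7 in young vehicle. How far cells of this type contributed to the members was not tested.

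The FAP identity list had a marked end at 6 of 6 genes in each of the 4 libraries. Since endothelial genes with a peak were marked nearly as often and housekeeping genes throughout, this does not set the sorted cell type apart from others. Members lay at 3 of them. Twist2, a mesenchymal transcription factor, had 2 members with 247 tags in old TSA, 164 in young TSA and 154 in young vehicle. Prrx1, a limb mesenchyme homeobox gene, had 86, 72 and 92, and Dpt, which encodes the matrix protein dermatopontin, had 114, 98 and 118. The list's share of tags was 0.944% in old TSA, 1.06% in old vehicle, 0.739% in young TSA and 0.892% in young vehicle.

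Among signalling genes, 6 of 11 Wnt, Notch and Hedgehog genes with a peak held a member: Hes6, Gli2, Notch1, Dll4, Bcl9 and Notch2. Gli2, a transcription factor of the Hedgehog pathway, had 161 tags in old TSA, 143 in young TSA and 93 in young vehicle over 2 members, and no old vehicle peak at its ends. Notch2 had 144 tags in old TSA, against 45 in young TSA and 44 in young vehicle. Growth factor receptors held members at 5 of 6 genes, namely Nrp2, Epha4, Ddr2, Plxna2 and Mertk. Epha4, an ephrin receptor, had 130 tags in old TSA, 238 in young TSA and 331 in young vehicle, and Ddr2, a collagen receptor, had 146, 148 and 278. Old TSA was lowest in 4 of these 5 genes and highest in Mertk, with 203 tags against 113 and 139. TGF-beta and BMP genes held members at 3 of 9, namely Tgfb2, Eng and Id1.

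Matrix genes held members at 9 of 25. Fbn1, which encodes fibrillin 1, had 4 members with 471 tags in old TSA, 351 in young TSA and 665 in young vehicle. Col5a1 had 230, 201 and 162, and Lamc1 294, 302 and 384 over 3 members. Senescence genes held members at 5 of 12, namely Igfbp5, Tgfb2, Ptges, Cd44 and Tnfsf10, and adipogenesis genes at 3 of 9, namely Rxra, Hsd11b1 and Fabp4. Cell cycle genes held them at 3 of 13, where Mcm3, a subunit of the replicative helicase, had 42 tags in old TSA, 104 in young TSA and 77 in young vehicle, and Tpx2, a spindle factor, had 63, 102 and 147. Muscle fibre genes, of which Casq1 held the member, had a marked end at 2 genes in old TSA, 1 in old vehicle, 2 in young TSA and 2 in young vehicle, and held 0.205%, 0.206%, 0.178% and 0.152% of the tags in the same order. Macrophage genes had members at 1 of 5 (Csf1), muscle fibre genes at 1 of 4 and immediate early genes at 1 of 5 (Ier5). No member lay at any of 17 housekeeping genes with a peak, nor at listed muscle stem cell, pericyte, Schwann cell, tenocyte, lymphocyte, acetylation enzyme or neural genes. All 17 housekeeping genes had a marked end in each library. Among the genes with a member, Tgfb2, Dll4 and Eng stand in more than 1 list, and the lists hold too few genes on this stretch for a count to be called particular to 1 of them.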

How the data were processed

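Peaks of 8 immunoprecipitated libraries were analysed, and the 4 input samples were not used. Per the submitters' processing notes, Bowtie 0.12.7, DESeq2, HOMER, HTSeq 0.6.1p1, MACS2 and TopHat2 2.0.9 and the build GRCm38 were used, without roles. Per the file headers, each list was written by HOMER with a library's tags set against themselves, so that libraries were not pooled, the deposited tag count of a peak is not normalized, the deposited fold ratio is 1 and the deposited peak score 0 for every peak, and the deposited p-value carries no strength; none of these 3 was used. The lists used here end part of the way through the genome, so comparisons cover only the stretch common to all lists, with 18.1% of the peaks that the header counts in old TSA, 17.9% in old vehicle, 18.1% in young TSA and 18.3% in young vehicle for H3K27ac.

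Peaks were merged, classed and counted in Python 3.11.15 with numpy 2.4.6, pandas 2.3.3 and scipy 1.17.1, and the merge was tested on simulated data. Gene positions, promoters and microRNAs came from RefSeq tables of GRCm38.p6. Gene ends are within 1000 bp of either annotated end. Intervals are exact 95% Clopper-Pearson intervals, or order-statistic intervals for medians, and cover counting error only. Named were the 12 members with the most tags in their weakest library, the 6 nearest an old vehicle peak, the 6 regions just outside the rule, the 6 members in each direction of H3K9/14ac with the most tags, the 10 genes with the most members, the 12 genes whose end held a member and no old vehicle peak, and listed genes with a member. Values are printed for part of these, chosen with the values seen, and 1 region just outside the rule is not reported here. The members and the lists were chosen with earlier results of these data known. Widths ranked peaks where lists were shortened. The alternatives with a transcription start within 1000 bp, with members that have no old vehicle peak within 1000 bp and with members at consecutive old vehicle numbers were in part chosen after seeing the data.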

Additional observations from a re-analysis of the deposited data

Results flagged for a closer look

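The share of members with an H3K9/14ac peak moved in opposite directions with TSA at the 2 ages. In old cells, TSA minus vehicle was -2.9 percentage points, and in young cells it was 10.5 percentage points. Over all regions the differences were -1.76 points in old and 5.09 points in young cells, with the same signs. With H3K9/14ac lists of equal length by width, the differences at members were 5.8 points in old and 5.98 points in young cells. Over all regions they were 3.48 and 1.67 points, so that the opposite directions were no longer seen in either set. Old TSA, the shortest list, kept all of its 2474 peaks, whereas old vehicle was cut to that number from 3235. The turn in old cells thus came from shortening old vehicle alone, and these values are a description.

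At the members with an H3K9/14ac peak in all 4 libraries, the median log2 tag ratio of TSA over vehicle was -0.39 in old cells and 0.60 in young cells. Regions in all 4 H3K27ac lists with the same property had -0.39 and 0.37. H3K9/14ac tags in peaks moved the same way, with 426273 in old TSA and 608674 in old vehicle, and 631446 in young TSA and 452476 in young vehicle; their part was not tested. No difference between the ages was tested, since each group had 1 library.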

How the results depend on the processing

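No paired analysis was possible because each group had 1 library and the labels carry no replicate numbers. Of 54 alternative values, 39 moved beyond the counting interval or 1.5 times the count, and 15 did not. The number of members, 753 as reported, was 371 with the wider 50% of peaks, which overlap only 90 of the 753 and so are mostly other regions, 455 and 451 with lists of equal length ranked by width and by tags, 501 without chromosome 1 and 424 without chromosome 2. With lists of equal length by width, 194 regions were missing only in young TSA. Old vehicle was the shortest list and kept all of its 5727 peaks, and the 455 regions overlap 455 of the 753. The rule used these lists, so these counts are a description and do not correct for depth. The share within 1000 bp of a gene end, 28.0% as reported, was 32.3% within 2500 bp, 24.4% with lists of equal length, 24.2% counting transcription starts, 22.5% for members with no old vehicle peak within 1000 bp, and 51.2% for the 43 members at consecutive old vehicle numbers. The shares of members with an H3K9/14ac peak in old TSA, old vehicle, young TSA and young vehicle were 38.2%, 41.1%, 49.6% and 36.2% for peaks within 1000 bp, 79.6%, 79.0%, 85.4% and 77.1% at gene ends, 11.9%, 16.2%, 21.8% and 10.4% away from them, and 48.6%, 48.6%, 51.4% and 43.2% at consecutive numbers. H3K9/14ac lists of equal length gave 25.4% by width and 25.2% by tags in old vehicle and 32.4% by either in young TSA. Old TSA, the shortest of these lists, lost no peak and stayed at 31.2%. Old vehicle was then below old TSA, as it was over all regions (32.7% in old TSA and 29.2% in old vehicle by width). Without members near an old vehicle peak, old TSA had 26.9%. With peaks within 500 bp joined, median widths were 638 bp in old TSA, 620 bp in young TSA and 925 bp in young vehicle, and median tags 96, 96 and 130. Relative tags per bp of peak had medians of 0.02 for old TSA over young vehicle and 0.05 for young TSA over young vehicle, both turned in sign and both near 0. Tags outside peaks were not analysed here, so whether a region without a listed old vehicle peak had fewer tags could not be measured.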
